A study of Homo sapiens with 54 samples.

Results

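The 9 genes described here are the core of base excision repair and single-strand break repair: UNG, OGG1, MUTYH, APEX1, POLB, XRCC1, LIG3, APTX and POLG. They were taken by symbol from a table of 27470 genes, and each symbol matched 1 row. All 9 passed the filter on low values in both cell lines. RNA was measured in 54 libraries from SUM1315 cells, a triple negative breast cancer (TNBC) line with mutant BRCA1, and MDA-MB-468 cells, a TNBC line with wild type BRCA1. Each line had 9 conditions of 3 libraries. Parental SUM1315 cells were untreated, given the PARP inhibitor olaparib at 8 µM, given cisplatin (CDDP) at 2 or 4 µM, or given olaparib with either CDDP dose. Parental MDA-MB-468 cells had the same design with 3 µM olaparib and with CDDP at 1 or 2.5 µM. The isogenic OlaR cells had been made resistant by slowly raising olaparib over months. They stayed in olaparib, at 25 µM for SUM1315 and 15 µM for MDA-MB-468, and were studied without CDDP or with either dose of it. OlaR cells therefore differ from olaparib-treated parental cells in resistance, in olaparib dose and in time in the drug, and these cannot be told apart. Treatment of parental cells lasted overnight.

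Base excision repair removes small base lesions in steps. A DNA glycosylase cuts out the damaged or wrong base, an endonuclease nicks the strand at the empty site, a polymerase fills the gap and a ligase seals the nick. Single-strand break repair shares the late steps, and PARP1, the target of olaparib, marks the break with poly(ADP-ribose) and draws in the scaffold XRCC1 with its partners. UNG removes uracil from DNA. OGG1 removes oxidised guanine, and MUTYH removes the adenine placed opposite it. APEX1 is the main endonuclease at empty sites, and POLB fills short gaps. XRCC1 is the scaffold, and LIG3 is its ligase partner. APTX clears adenylate groups that a failed ligation leaves on the strand end. POLG is the polymerase of mitochondrial DNA.

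In GRCh38 the 9 genes lie on separate chromosomes. UNG spans chr12:109097597-109126725 on the plus strand, OGG1 spans chr3:9749944-9788219 (plus), MUTYH spans chr1:45329163-45340893 (minus) and APEX1 spans chr14:20455191-20457772 (plus). XRCC1 spans chr19:43543311-43580473 (minus), LIG3 spans chr17:34980512-35009743 (plus), APTX spans chr9:32886601-33025130 (minus) and POLG spans chr15:89305198-89334861 (minus). The libraries read the 3′ ends of transcripts, and for 5 genes the last exon is shared with an exon of another gene. LIG3 overlaps RFFL on the opposite strand over 3754 bases, POLG overlaps FANCI over 431 bases, APEX1 overlaps PIP4P1 over 87 bases and OGG1 overlaps CAMK1 over 61 bases. MUTYH shares 176 bases with a gene of the same strand. The library kit keeps the strand, but whether the counting used it is not given in the sources used here. LIG3, POLG, APEX1, OGG1 and MUTYH may therefore hold reads of these neighbours or lack some of their own. The last exons of UNG, POLB, XRCC1 and APTX overlap no other gene.

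The start regions of UNG, APEX1 and APTX are shown as examples. UNG and APTX were called in both directions between the lines or conditions, and APEX1 was lower wherever it was called within a line. UNG and APEX1 carry the same marked motif, and APTX carries another. The sequences are RefSeq's for GRCh38.p14, from the 250 bases before the start that RefSeq's table gives each gene, read 5′ to 3′ on the gene's own strand and ended where an annotated exon of the gene begins. For UNG and APTX that start lies inside the wider span given above, which is GENCODE's and takes in transcripts that start further upstream. Capitals mark CACGTG, the E-box, and TGACGTCA, the cyclic AMP response element. They come from chr12:109097922-109098117 (plus), chr14:20454976-20455190 (plus) and chr9:33001642-33001878 (minus).
UNG: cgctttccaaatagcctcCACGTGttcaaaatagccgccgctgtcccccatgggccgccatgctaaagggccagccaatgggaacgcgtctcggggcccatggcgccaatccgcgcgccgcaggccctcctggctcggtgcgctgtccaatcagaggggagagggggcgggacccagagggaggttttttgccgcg
APEX1: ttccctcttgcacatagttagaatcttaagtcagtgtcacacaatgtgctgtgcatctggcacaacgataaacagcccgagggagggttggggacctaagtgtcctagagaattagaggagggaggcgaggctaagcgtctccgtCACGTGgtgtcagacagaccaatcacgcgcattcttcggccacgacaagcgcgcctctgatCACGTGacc
APTX: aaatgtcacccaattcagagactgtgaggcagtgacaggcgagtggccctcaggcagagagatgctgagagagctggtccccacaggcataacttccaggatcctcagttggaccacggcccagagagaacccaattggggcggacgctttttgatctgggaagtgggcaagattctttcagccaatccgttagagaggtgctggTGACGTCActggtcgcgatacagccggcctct

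In the full windows of 250 bases, APEX1 held 3 copies of CACGTG, UNG held 2 and LIG3 held 1, while the others held none. CACGTG was present in 6.34% of 35116 promoters of this length, either strand searched. APTX held 2 copies of TGACGTCA, which 1.65% of promoters hold, and no other member had it. The E2F letters TTTCGCGC, TTTGGCGC and TTTCCCGC and the NRF1 motif were in none of the 8 windows searched. These matches describe the letters and not binding. POLB was not searched.

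The values are reads per gene that had been brought to a shared library size of 5585170, called adjusted read counts. Whole reads per library ran from 2070301 to 9268162, and OlaR libraries were shallower than parental ones (median 3900438 against 6173974 in SUM1315, and 4455837 against 7331369 in MDA-MB-468). The ranges did not overlap: OlaR libraries reached 4665505 and parental ones began at 4977284 in SUM1315, and 4676284 and 5574767 in MDA-MB-468. Which libraries shared a sequencing pool is not given, so whether pool goes with OlaR or parental cells is not known. A member had 14 to 85 reads per library in MDA-MB-468 for POLG, the least covered there, and 16 to 63 in SUM1315 for MUTYH. For the well covered genes, UNG had 293 to 875 reads in SUM1315 and 452 to 1178 in MDA-MB-468. Replicate 3 of untreated SUM1315 stood apart from its group: the chi-square of its read counts divided by the degrees of freedom was 13.9 and 18.4 against the other libraries, which stood at 3.45 against each other. Replicate 3 of olaparib-treated SUM1315 also stood apart, at 8.27 and 8.26 against the others of its group, which stood at 2.86 against each other. In SUM1315 with 2 µM CDDP the 3 pairs reached 6.9, 9.35 and 20.6. Called results that rest on the untreated library are given with and without it. ESR1, PGR and ERBB2 were low in both lines (group means of untreated cells at most 63.4). MDA-MB-468 cells carried the epithelial markers EPCAM (3014) and CDH1 (969). In SUM1315 cells EPCAM (0.684), CDH1 (0.309) and KRT5 (0.646) were nearly absent and the mesenchymal gene VIM was at 11978. The epithelial list held 6 genes. The levels of KRT8, KRT18 and EGFR are not given here, so these values do not describe the whole list. In RNA from a whole culture, fewer cells of a kind and less RNA per cell cannot be told apart. Nothing in the sources says that the 3 libraries of a condition came from separate cultures, so p-values measure the spread between these libraries, which may be technical.

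**Figure D1:**
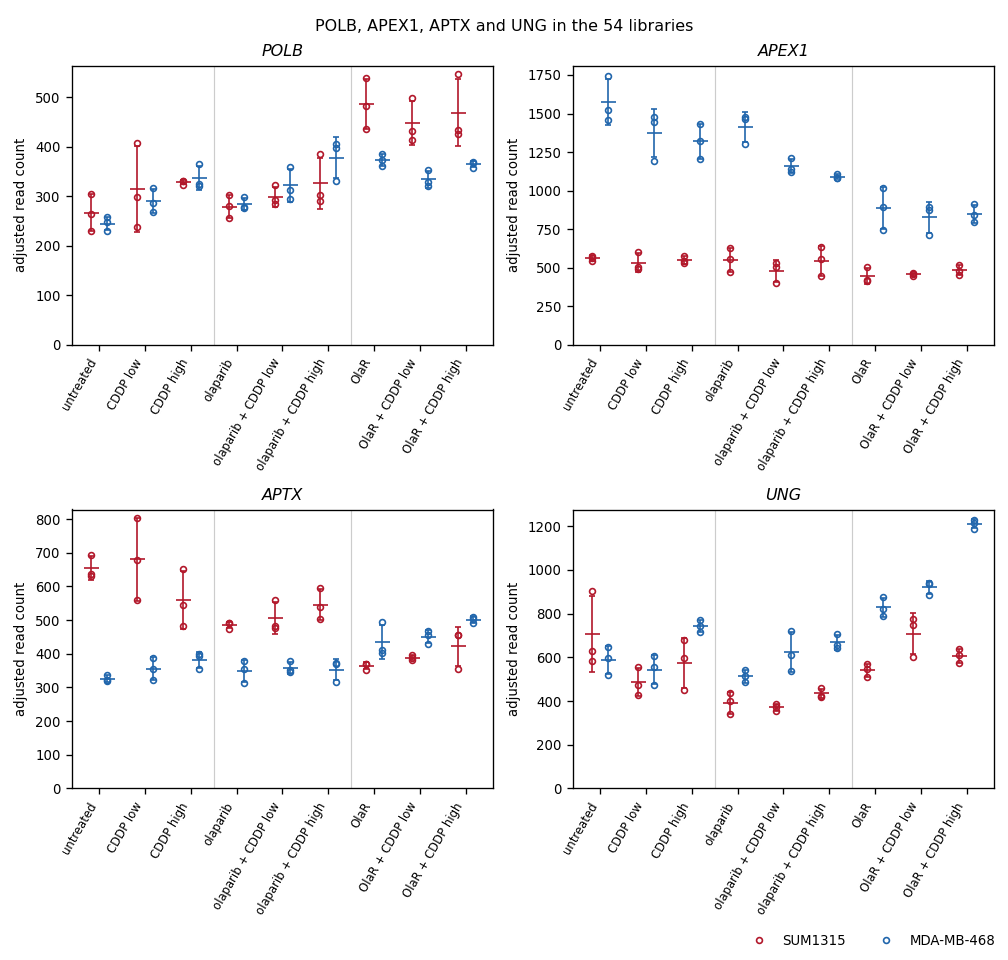
Adjusted read counts (linear axis from 0) of POLB, APEX1, APTX and UNG in 9 conditions of SUM1315 (red) and MDA-MB-468 (blue). Circles are the 3 libraries, bars the mean ± SD, and CDDP low and high are 2 and 4 µM in SUM1315 and 1 and 2.5 µM in MDA-MB-468. POLB was higher in the OlaR conditions of SUM1315, APEX1 lower in the OlaR conditions of MDA-MB-468, and APTX moved in opposite directions in the OlaR cells of the lines.

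Across the 9 conditions of a line the group means of these genes varied at most 2.36-fold. UNG had that range in MDA-MB-468, from 514 ± 29.4 with olaparib (SD, n = 3 here and below) to 1212 ± 20.3 in OlaR cells with 2.5 µM CDDP. Ordered by level, 4 of its 8 neighbouring pairs of conditions did not overlap, and these were the 4 highest steps. The order of the last 5 conditions was olaparib + 2.5 µM CDDP (669 ± 33.6), 2.5 µM CDDP (743 ± 27), OlaR (829 ± 42.7), OlaR + 1 µM CDDP (920 ± 30.8) and OlaR + 2.5 µM CDDP. The other 4 conditions, with means of 514 to 623, overlapped their neighbours. In SUM1315 cells UNG ranged from 372 ± 15.8 with olaparib + 2 µM CDDP to 708 ± 92.4 in OlaR + 2 µM CDDP, and no neighbouring pair was separate.

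APEX1 in MDA-MB-468 cells fell into steps. The 3 OlaR conditions held the lowest means (827 ± 99.9, 851 ± 58.5 and 886 ± 138), olaparib with 2.5 or 1 µM CDDP came next (1091 ± 13.9 and 1158 ± 45.6), and the 4 others lay between 1319 ± 112 and 1575 ± 148. Only the steps from OlaR to olaparib + 2.5 µM CDDP and from there to olaparib + 1 µM CDDP were free of overlap. In SUM1315 cells all neighbouring conditions overlapped, from 446 ± 52.6 in OlaR cells to 562 ± 18 in untreated cells.

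POLB in SUM1315 cells had 1 separate step, between 4 µM CDDP (328 ± 4.22) and OlaR + 2 µM CDDP (448 ± 45.1), so that the 3 OlaR conditions were the highest 3. In MDA-MB-468 cells the separate step was between untreated cells, the lowest at 245 ± 13.7, and olaparib (284 ± 12.1), and the highest was olaparib + 2.5 µM CDDP at 378 ± 41.3. APTX ran in opposite orders. In SUM1315 cells the 3 OlaR conditions were lowest (364 ± 10.6, 388 ± 8.11 and 422 ± 58.4) and the 3 olaparib conditions next (485 ± 9.89 to 546 ± 45.3), with a gap between the 2 sets. The top was 2 µM CDDP at 681 ± 123. In MDA-MB-468 cells untreated cells were lowest (326 ± 10.1) and the 3 OlaR conditions highest (436 ± 50.2, 451 ± 19.7 and 502 ± 9.39), above a gap from 2.5 µM CDDP (382 ± 23.2).

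**Figure D2:**
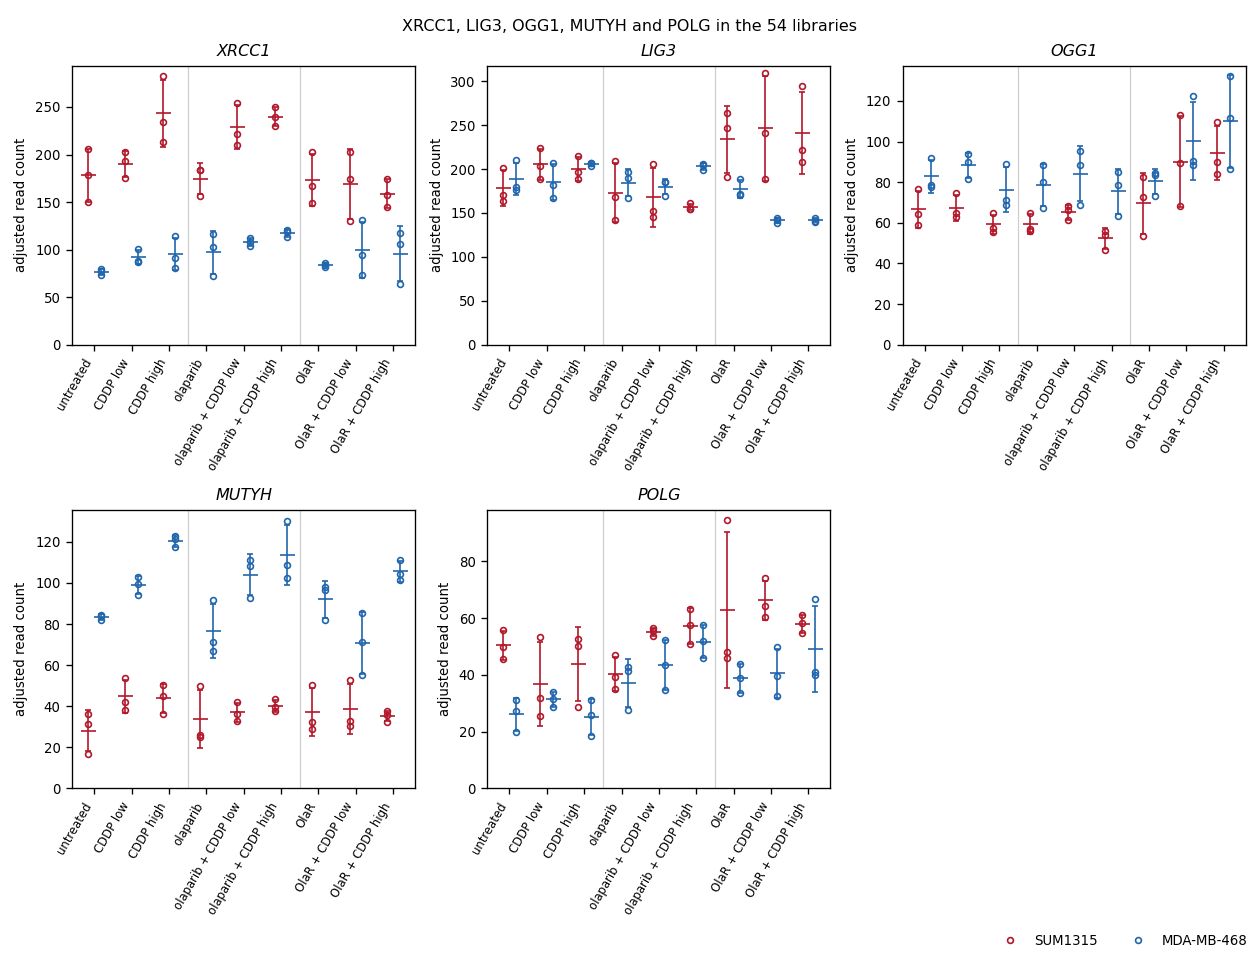
Adjusted read counts (linear axis from 0) of XRCC1, LIG3, OGG1, MUTYH and POLG in the same 54 libraries, drawn as for the other 4 genes. XRCC1 was higher and MUTYH lower in SUM1315 (red) than in MDA-MB-468 (blue), and most neighbouring conditions within a line overlapped.

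The other 5 genes moved less between conditions or were measured with more spread. XRCC1 ranged from 159 ± 14.9 (OlaR + 4 µM CDDP) to 243 ± 35.4 (4 µM CDDP) in SUM1315 and from 76.7 ± 2.91 (untreated) to 117 ± 4.18 (olaparib + 2.5 µM CDDP) in MDA-MB-468. LIG3 ranged from 157 ± 3.51 to 246 ± 60.2 in SUM1315 and from 141 ± 2.59 to 206 ± 1.96 in MDA-MB-468. For OGG1 the ranges were 52.3 ± 5.01 to 94.3 ± 13.4 and 75.5 ± 11.2 to 110 ± 22.9. MUTYH lay between 28.1 ± 10.1 and 44.8 ± 8.01 in SUM1315 and between 70.7 ± 15.1 and 120 ± 2.85 in MDA-MB-468. POLG lay between 36.8 ± 14.7 and 66.2 ± 6.99 in SUM1315 and between 25.2 ± 6.33 and 51.7 ± 5.87 in MDA-MB-468. OGG1, MUTYH and POLG had no separate neighbouring pair in either line, while XRCC1 in MDA-MB-468 had 3, at the low and the high end.

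The question of the first comparison was how the untreated lines differ. SUM1315 cells had more XRCC1, APTX and POLG and less APEX1 and MUTYH than MDA-MB-468 cells, 5 of 9 genes at an adjusted p of at most 0.05 (limma on log2 of the value plus 1, Benjamini-Hochberg adjustment over 11755 genes). Of all genes tested, 71% were called in this comparison. The lines may also have been sequenced in separate batches, since libraries were pooled 27 at a time. The sources do not say which shared a pool, so whether pool goes with line is not known. APEX1 was at 543, 565 and 578 in the untreated SUM1315 libraries and at 1458, 1526 and 1742 in those of MDA-MB-468. No library overlapped, and the log2 difference was -1.48 ± 0.11 (SE, adjusted p = 4.82e-17). MUTYH was at 31.6, 16.7 and 36.1 against 84.3, 81.8 and 84.1, a difference of -1.6 ± 0.23 (adjusted p = 2.84e-08). XRCC1 was at 179, 150 and 206 against 77.3, 79.3 and 73.5, 2.29-fold higher (adjusted p = 6.69e-08). For APTX the SUM1315 libraries read 695, 636 and 631 and the MDA-MB-468 libraries 321, 320 and 338, a log2 difference of 1 ± 0.11 (adjusted p = 4.96e-12). POLG differed by 0.94 ± 0.27 (adjusted p = 0.00154), from 26.2 ± 5.75 in MDA-MB-468 to 50.4 ± 5.18 in SUM1315. The scaffold and the end cleaner were thus higher in the BRCA1 mutant line, and the endonuclease was lower. The interval of the difference was -0.37 to 0.21 for LIG3 and -0.14 to 0.36 for POLB, and UNG (log2 difference 0.24, adjusted p = 0.0754) and OGG1 (-0.32, adjusted p = 0.129) were not called either. The edgeR and DESeq2 tests called 6 members here, UNG included. Without replicate 3 of untreated SUM1315 the same 5 members were called by limma, with log2 differences of -1.81 for MUTYH, -1.5 for APEX1, 1.09 for XRCC1, 1.02 for APTX and 0.95 for POLG, and UNG was at 0.05.

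The second comparison asked what overnight olaparib did in parental cells. In SUM1315 cells UNG and APTX fell and no member rose, 2 of 9 called where 36% of 13133 genes were called. UNG read 583, 628 and 905 in untreated libraries and 437, 401 and 339 with olaparib. Every olaparib library was below every untreated one, and the log2 fold change was -0.83 ± 0.14 (adjusted p = 2.19e-05). Without replicate 3 of untreated SUM1315, the library at 905, it was -0.63 and stayed called (adjusted p = 0.000583). APTX read 695, 636 and 631 untreated and 491, 490 and 474 with olaparib, a log2 fold change of -0.43 ± 0.12 (adjusted p = 0.00549). The 3 olaparib libraries were tight and below all untreated ones, and without untreated replicate 3 the value was -0.45 (adjusted p = 0.00934). The other 7 members were not called, with log2 fold changes of -0.32 for POLG to 0.25 for MUTYH.

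In MDA-MB-468 cells limma called 0 of 9 members with olaparib, where 21.5% of 13012 genes were called. At an unadjusted p under 0.05 there were 2, POLB (log2 fold change 0.21, adjusted p = 0.0971) and UNG (-0.19, adjusted p = 0.0992). The edgeR quasi-likelihood test on the recovered whole reads called 1, UNG, and DESeq2 called 0. POLB read 257, 247 and 230 untreated and 276, 279 and 298 with olaparib, which do not overlap. UNG read 521, 647 and 597 untreated and 513, 485 and 544 with olaparib, which overlap. For APTX the interval was -0.09 to 0.27. POLG went from 26.2 ± 5.75 untreated to 37.2 ± 8.49 with olaparib, with overlapping libraries, and was not called. Tested directly between the lines, the olaparib effect differed for UNG (log2 difference SUM1315 minus MDA-MB-468 -0.64 ± 0.17, adjusted p = 0.00476) and APTX (-0.52 ± 0.15, adjusted p = 0.00813), 2 of 9 members where 23.6% of genes differed. In this test of the lines POLG had an unadjusted p under 0.05 and was not called. Without replicate 3 of untreated SUM1315 the UNG difference was -0.44 and was not called (adjusted p = 0.0511), and the APTX difference was -0.55 and was called (adjusted p = 0.011). The olaparib doses were 8 and 3 µM, so line and dose cannot be told apart.

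**Figure D3:**
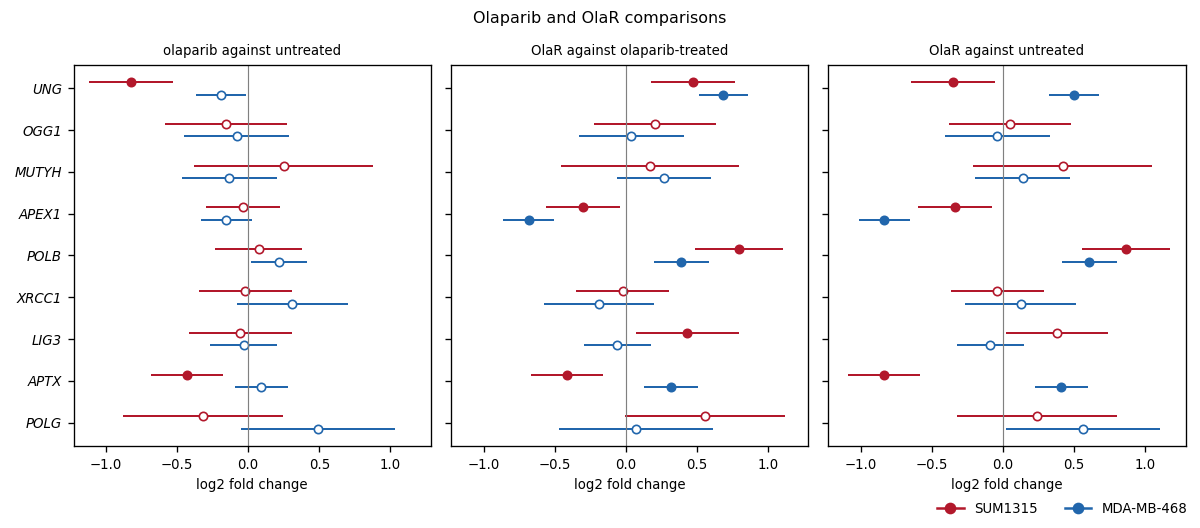
Log2 fold change of the 9 genes (dots, with 95% confidence intervals as lines) for olaparib against untreated parental, OlaR against olaparib-treated parental and OlaR against untreated parental, in SUM1315 (red) and MDA-MB-468 (blue). Filled dots were called at an adjusted p of at most 0.05. POLB lies to the right and APEX1 to the left of 0 in both lines in the OlaR panels, and APTX lies on opposite sides.

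OlaR cells were compared with olaparib-treated parental cells, from which they differ in olaparib dose and time in the drug as well as in resistance. In both lines POLB and UNG were higher and APEX1 lower in OlaR cells, while APTX was lower in SUM1315 and higher in MDA-MB-468. In SUM1315 the APEX1 and UNG calls were lost when single libraries were left out, as given below. The counts were 5 of 9 in SUM1315, with POLB, UNG and LIG3 higher and APTX and APEX1 lower, where 47.2% of genes were called. In MDA-MB-468 they were 4 of 9, with UNG, POLB and APTX higher and APEX1 lower, where 51.5% were called. The share of members called was therefore close to that of all genes.

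UNG, the uracil glycosylase, read 546, 510 and 569 in SUM1315 OlaR libraries against 437, 401 and 339 with olaparib, a log2 fold change of 0.47 ± 0.14 (adjusted p = 0.00649). The groups did not overlap, but replicate 3 of the olaparib-treated cells stood apart from its group. Without it the value was 0.37 and was not called (adjusted p = 0.0511). In MDA-MB-468 UNG read 874, 789 and 822 against 513, 485 and 544, 1.61-fold higher with a log2 fold change of 0.69 ± 0.08 (adjusted p = 8.62e-10). All 3 OlaR libraries were far above the parental ones.

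APEX1, the endonuclease, read 1019, 896 and 744 in MDA-MB-468 OlaR libraries and 1476, 1464 and 1302 in olaparib-treated parental ones. The fold was 0.623 (log2 -0.68 ± 0.09, adjusted p = 2.03e-09). In SUM1315 the libraries overlapped, at 411, 420 and 506 against 627, 554 and 472, and the log2 fold change was -0.3 ± 0.12 (adjusted p = 0.046). That call was lost with the edgeR and DESeq2 tests (adjusted p = 0.0587 to 0.0898) and without OlaR replicate 1 or 2 or olaparib replicate 1 or 2 (log2 fold change -0.29 to -0.2). In limma it was also lost without the filter (adjusted p = 0.0727) and with the replicate number as a block (adjusted p = 0.0502).

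POLB, the gap-filling polymerase, read 483, 538 and 437 in SUM1315 OlaR libraries and 256, 302 and 280 in olaparib-treated parental ones. It was 1.74-fold higher (log2 0.8 ± 0.15, adjusted p = 4.51e-05), with a wide gap between the groups. In MDA-MB-468 it read 374, 385 and 362 against 276, 279 and 298, 1.31-fold higher (log2 0.39 ± 0.09, adjusted p = 0.000392). The POLB rise was not shown to differ between the lines (difference 0.4, adjusted p = 0.0586), though it was called with only the groups compared (adjusted p = 0.0304) and without SUM1315 OlaR replicate 3 or olaparib replicate 2.

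Among the partners of the sealing step, XRCC1 was called in neither line (intervals -0.34 to 0.3 in SUM1315 and -0.57 to 0.19 in MDA-MB-468). LIG3 was higher in SUM1315 OlaR cells, with 247, 264 and 190 against 209, 169 and 142 (log2 0.43 ± 0.17, adjusted p = 0.0392). These groups overlap, and the call was lost without OlaR replicate 1 or 2 or olaparib replicate 2 or 3 (adjusted p = 0.085 to 0.204). The value of 0.204 was that without olaparib replicate 3, which stood apart from its group. APTX read 370, 371 and 352 in SUM1315 OlaR libraries against 491, 490 and 474 (log2 -0.41 ± 0.12, adjusted p = 0.00554). In MDA-MB-468 it read 403, 410 and 494 against 314, 378 and 355 (log2 0.32 ± 0.09, adjusted p = 0.00274). Without OlaR replicate 3, the library at 494, the MDA-MB-468 value was 0.22 and was not called (adjusted p = 0.0551). OGG1, MUTYH and POLG were called by limma in neither line. DESeq2 called POLG in SUM1315 (adjusted p = 0.0453), as did limma without OlaR replicate 3 (adjusted p = 0.0485), and without OlaR replicate 1 the value fell to 0.22. For POLG in SUM1315 the OlaR libraries read 94.5, 48 and 45.9 against 46.9, 39.1 and 35, so that 1 library carried most of the rise.

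The difference between the lines was tested too. The OlaR change of APTX differed by -0.73 ± 0.15 (SUM1315 minus MDA-MB-468, adjusted p = 7.95e-05). That of LIG3 differed by 0.49 (adjusted p = 0.0432) and that of APEX1 by 0.38 (adjusted p = 0.048), and 44.9% of all genes differed. The LIG3 difference was lost in 8 of 12 fits without 1 library, and the APEX1 difference in 7 of 12 and with edgeR and DESeq2. The APTX difference was called in all 12.

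Against untreated parental cells, which are also the controls of the olaparib comparison, OlaR cells had 4 called members in each line, where 54.7% of tested genes were called in SUM1315 and 53.5% in the other line. POLB was 1.82-fold higher in SUM1315 (log2 0.87, adjusted p = 8.62e-06) and 1.52-fold higher in MDA-MB-468 (log2 0.61, adjusted p = 2.5e-07). Without untreated replicate 3 the SUM1315 values were 0.97 for POLB and -0.87 for APTX, both called. LIG3, at 0.38 in SUM1315 and not called (adjusted p = 0.0651), was called without that library (0.47, adjusted p = 0.0401), without OlaR replicate 3, with edgeR's TMM scaling and with DESeq2. APEX1 was at 0.56 of the untreated level in MDA-MB-468 (log2 -0.84, adjusted p = 5.66e-12) and at 0.79 in SUM1315 (log2 -0.34, adjusted p = 0.0216). The SUM1315 APEX1 call was lost without OlaR replicate 1 or 2 or untreated replicate 3 (adjusted p = 0.0525 to 0.0927). APTX was at 0.558 of the untreated level in SUM1315 (log2 -0.84, adjusted p = 5.04e-07) and 1.33-fold higher in MDA-MB-468 (log2 0.41, adjusted p = 0.000139). UNG was higher in MDA-MB-468 (log2 0.5, adjusted p = 1.48e-06) and lower in SUM1315 (log2 -0.35, adjusted p = 0.0341). The SUM1315 value for UNG was -0.16 without replicate 3 of the untreated cells and was not called (adjusted p = 0.342), and it was also lost without OlaR replicate 1 or 2 (adjusted p = 0.0638 and 0.107).

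Cell cycle genes moved with several of these results. In OlaR against olaparib-treated SUM1315 cells, 12 of 15 tested G1/S genes rose and none fell (median log2 fold change 1.04), and 3 of 14 G2/M genes rose and 6 fell. In MDA-MB-468, 10 of 16 G1/S genes rose and 2 fell (median 0.36), and 12 of 14 G2/M genes fell (median -0.49). RRM2, a subunit of ribonucleotide reductase, rose in SUM1315 (log2 1.17, adjusted p = 2.05e-11) and fell in MDA-MB-468 (log2 -0.43, adjusted p = 6.1e-10). CCNE2, a G1/S cyclin, rose in MDA-MB-468 (0.57, adjusted p = 0.0112) and was at 0.47 in SUM1315 (adjusted p = 0.292). CCNB1, the mitotic cyclin, fell in both lines (log2 -0.25 and -0.55), and MKI67, a proliferation marker, rose in SUM1315 (0.52, adjusted p = 0.0012). With olaparib alone 13 of 14 G2/M genes rose in SUM1315 (median 0.91) and 11 of 14 in MDA-MB-468 (median 0.54). Of all genes tested, 21.6% were higher and 25.7% lower in SUM1315 OlaR cells than with olaparib, and 23.6% were higher and 27.9% lower in those of MDA-MB-468. With olaparib 18.9% rose and 17.1% fell in SUM1315, and 12.4% rose and 9.11% fell in MDA-MB-468. The median over all genes was between -0.05 and 0.01 in these comparisons. The part of these shifts in the changes of UNG, POLB, APEX1 and APTX was not tested. Lineage markers moved too. In SUM1315 OlaR cells 3 of 3 mesenchymal markers were lower (median log2 fold change -1.34) than with olaparib, VIM at 9186 ± 357 against 13004 ± 221, ZEB1 at 137 ± 8.54 against 377 ± 39.1 and CDH2 at 208 ± 11.6 against 527 ± 17.3. In MDA-MB-468 OlaR cells 2 of 6 epithelial markers were higher and 2 lower (median 0.06). KRT5, a basal keratin, was at 3588 ± 217 against 477 ± 57.4, and the 2 lower markers are not named here. VIM was also lower in these cells, at 18.6 ± 5.9 against 35.8 ± 4.89 (log2 -0.94, adjusted p = 0.0149). ZEB1 and CDH2 were too low there to be tested. ESR1 there was at 216 ± 6.88 against 40.3 ± 9.55 (log2 2.42, adjusted p = 3.5e-14). Their part was not tested either.

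CDDP was studied without olaparib, with olaparib and in OlaR cells, and these comparisons share their untreated, olaparib or OlaR libraries with those above. Without olaparib, 2.5 µM CDDP raised MUTYH, POLB and UNG and lowered APEX1 in MDA-MB-468 cells, 4 of 9 members where 25.1% of genes were called. MUTYH read 123, 117 and 121 against 84.3, 81.8 and 84.1 untreated, with no overlap (log2 0.53 ± 0.16, adjusted p = 0.0125). POLB read 321, 326 and 364 against 257, 247 and 230 (log2 0.46 ± 0.09, adjusted p = 0.000167). UNG read 745, 715 and 769 against 521, 647 and 597 (log2 0.34 ± 0.08, adjusted p = 0.00159). Neither gene had overlapping groups. APEX1 fell by 0.26 on the log2 scale (adjusted p = 0.0223), a call lost without CDDP replicate 1 or 3 or untreated replicate 3 (adjusted p = 0.0528 to 0.183). At 1 µM limma, edgeR and DESeq2 each called 0 of 9 members, where limma called 20% of genes. At an unadjusted p under 0.05 there were 2, POLB and APEX1.

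In SUM1315 cells 4 µM CDDP raised XRCC1 and changed no other member by the test, 1 of 9 where 43.9% of genes were called. XRCC1 read 282, 234 and 213 against 179, 150 and 206 untreated (log2 0.45 ± 0.16, adjusted p = 0.0204). The groups did not overlap, but the call was lost without CDDP replicate 1 (0.34, adjusted p = 0.127) or untreated replicate 2 (0.33, adjusted p = 0.122). Without untreated replicate 3 XRCC1 was at 0.56, and POLB (0.41, adjusted p = 0.0402) and MUTYH (0.89, adjusted p = 0.0349) were called as well. With all libraries MUTYH stood at 43.9 ± 7.05 against 28.1 ± 10.1 (log2 0.68, adjusted p = 0.0688) and UNG at 574 ± 116 against 705 ± 174 (log2 -0.29, adjusted p = 0.0969). Without CDDP replicate 2, UNG (-0.42) and APTX (-0.35) were called, and UNG also without untreated replicate 1 (-0.41). At 2 µM UNG was lower, 558, 430 and 472 against 583, 628 and 905 (log2 -0.52 ± 0.14, adjusted p = 0.00484), 1 of 9 where 33.9% were called. Without replicate 3 of the untreated cells it was -0.32 and was not called (adjusted p = 0.0822), while MUTYH was (0.92, adjusted p = 0.0429). Without each of the 2 µM CDDP libraries in turn UNG was at -0.62 to -0.43 and called. POLB was called without CDDP replicate 2 (0.39, adjusted p = 0.049) and POLG without CDDP replicate 3 (-0.8, adjusted p = 0.0309), neither of them with all libraries.

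The effect of the higher dose differed between the lines for UNG (log2 difference SUM1315 minus MDA-MB-468 -0.63 ± 0.17, adjusted p = 0.00366) and for APTX (-0.46 ± 0.15, adjusted p = 0.0154), 2 of 9 members where 31.8% of genes differed. The APTX difference was lost without replicate 1 of 4 µM CDDP in SUM1315 (-0.36, adjusted p = 0.0763). Without untreated SUM1315 replicate 3 the differences were -0.44 for UNG (adjusted p = 0.0397) and -0.49 for APTX (adjusted p = 0.0173). For APTX itself neither line was called at this dose with all libraries, with log2 fold changes of -0.23 in SUM1315 and 0.23 in MDA-MB-468. The doses compared were 4 and 2.5 µM.

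**Figure D4:**
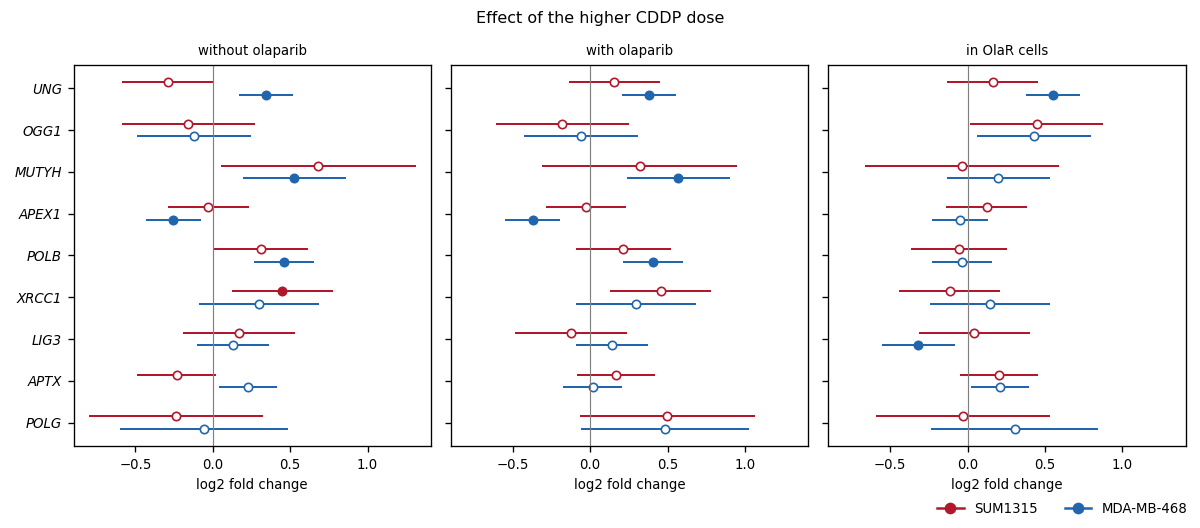
Log2 fold change of the 9 genes (dots, with 95% confidence intervals as lines) for the higher CDDP dose, 4 µM in SUM1315 (red) and 2.5 µM in MDA-MB-468 (blue), without olaparib, with olaparib and in OlaR cells. Filled dots were called at an adjusted p of at most 0.05. POLB and MUTYH were called in parental MDA-MB-468 cells in both left panels and not in OlaR cells, where UNG rose and LIG3 fell.

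On top of olaparib, 2.5 µM CDDP again raised MUTYH, POLB and UNG and lowered APEX1 in MDA-MB-468 cells, 4 of 9 members where 23.1% of genes were called. MUTYH read 109, 102 and 130 with the combination against 71.4, 91.5 and 67.1 with olaparib (log2 0.57, adjusted p = 0.00704), a call lost without replicate 3 of either group (adjusted p = 0.0668 and 0.0513). POLB read 331, 399 and 406 against 276, 279 and 298 (log2 0.41, adjusted p = 0.000781). UNG read 655, 644 and 707 against 513, 485 and 544 (log2 0.38, adjusted p = 0.000436), and APEX1 read 1107, 1081 and 1085 against 1476, 1464 and 1302 (log2 -0.37, adjusted p = 0.000766). The APEX1 libraries with the combination were tight and all below those with olaparib. With 1 µM CDDP, UNG was higher (log2 0.27, adjusted p = 0.0471) and APEX1 lower (-0.29, adjusted p = 0.0355), 2 of 9 where 5.26% of genes were called. Each of these 2 calls was lost without olaparib replicate 1 or 2 or combination replicate 1 or 2.

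Compared with 2.5 µM CDDP alone, the combination with olaparib had more POLG and less APEX1 in MDA-MB-468, 2 of 9 where 11.9% of genes were called. POLG read 45.8, 57.6 and 51.8 against 31.2, 25.8 and 18.6, 2.05-fold higher (log2 1.03 ± 0.27, adjusted p = 0.00567). Among the comparisons within a line it was the only called change of a member that reached 2-fold. It rested on few reads, and without replicate 3 of the CDDP group it was 0.84 and was not called (adjusted p = 0.0629). Reads of POLG and of the overlapping FANCI cannot be told apart if strand was not used. APEX1 was lower by a log2 fold change of -0.27 (adjusted p = 0.0291), not called without CDDP replicate 1 or 2 or combination replicate 2 or 3.

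In olaparib-treated SUM1315 cells limma called 0 of 9 members with 4 µM CDDP, where 8.44% of genes were called, and 0 with 2 µM, where 3.76% were. At an unadjusted p under 0.05 there was 1 at each dose, XRCC1. XRCC1 read 239, 230 and 250 with 4 µM CDDP against 184, 156 and 184 with olaparib, without overlap (log2 0.46 ± 0.16, adjusted p = 0.0661). DESeq2 called it at 4 µM and edgeR did not, and neither called a member at 2 µM. Against 4 µM CDDP alone, the combination had 0 called members with limma, edgeR and DESeq2, where limma called 12.8% of genes, and 1, UNG, at an unadjusted p under 0.05 (log2 -0.38, adjusted p = 0.0727).

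In OlaR MDA-MB-468 cells, 2.5 µM CDDP raised UNG and lowered LIG3, 2 of 9 where 18.7% of genes were called. UNG read 1216, 1230 and 1190 against 874, 789 and 822 in OlaR cells without CDDP (log2 0.55 ± 0.08, adjusted p = 1.72e-06), and these were its highest values of the series. LIG3 read 141, 140 and 144 against 170, 172 and 189, without overlap (log2 -0.32 ± 0.11, adjusted p = 0.0403). The LIG3 call was lost in each of the 6 fits without 1 library (adjusted p = 0.0557 to 0.153) and with edgeR and DESeq2 (adjusted p = 0.0981 to 0.108). APTX and OGG1 had an unadjusted p under 0.05 and were not called. Limma called APTX without OlaR replicate 3 (0.3, adjusted p = 0.0279) and OGG1 without OlaR + 2.5 µM CDDP replicate 3 (0.59, adjusted p = 0.0348). In these cells POLB stayed near its OlaR level, at 365 ± 6.1 against 374 ± 11.7, and APEX1 at 851 ± 58.5 against 886 ± 138. With 1 µM CDDP limma, edgeR and DESeq2 called 0 of 9, where limma called 4.76% of genes, and 2 members, LIG3 and MUTYH, had an unadjusted p under 0.05.

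In OlaR SUM1315 cells limma, edgeR and DESeq2 called 0 of 9 members with either dose, where limma called 16.7% of genes at 4 µM and 1.42% at 2 µM. At an unadjusted p under 0.05 there was OGG1 at 4 µM, with 89.8, 83.8 and 109 against 72.8, 53.4 and 82.6 (log2 0.45, adjusted p = 0.143), and UNG at 2 µM.

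Whether CDDP acts differently in OlaR and in olaparib-treated parental cells was tested as an interaction. In MDA-MB-468 it was called for POLB (-0.44 ± 0.13 on the log2 scale, OlaR minus parental, adjusted p = 0.0172) and LIG3 (-0.46 ± 0.16, adjusted p = 0.0422), 2 of 9 where 15% of genes were called. For POLB the change with 2.5 µM CDDP was 0.41 in parental cells, called, and -0.03 in OlaR cells, not called. The POLB interaction was lost without replicate 2 or 3 of olaparib + 2.5 µM CDDP (adjusted p = 0.0565 and 0.0628), and that of LIG3 in 10 of 12 fits without 1 library and with edgeR and DESeq2. The APEX1 interaction had an unadjusted p under 0.05 and was not called. Limma called it without OlaR replicate 1 (0.43), OlaR + 2.5 µM CDDP replicate 3 (0.37) or olaparib replicate 3 (0.38). In SUM1315 limma, edgeR and DESeq2 called 0 of 9, where limma called 6.4% of genes, and XRCC1 and OGG1 had an unadjusted p under 0.05.

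CDDP also moved the cell cycle lists. At the higher dose without olaparib, 14 of 15 G1/S genes rose in SUM1315 (median log2 fold change 1.05) and 14 of 16 in MDA-MB-468 (median 0.78), while 11 of 14 G2/M genes rose in SUM1315 and 10 of 14 fell in MDA-MB-468. On top of olaparib 2.5 µM CDDP raised 14 of 16 G1/S genes and lowered 14 of 14 G2/M genes in MDA-MB-468. RRM2 went from 1925 ± 90.2 to 5665 ± 86.1 with 2.5 µM CDDP in MDA-MB-468 and CCNB1 from 1097 ± 31.6 to 692 ± 35.2. Over all genes 22.2% rose and 21.7% fell with 4 µM CDDP in SUM1315. With 2.5 µM CDDP in MDA-MB-468 13.3% rose and 11.8% fell without olaparib, and 10.1% rose and 13.1% fell on top of it. How far these shifts bear on UNG, POLB, MUTYH and APEX1 was not tested.

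The wider pathway was described with 46 genes in 6 lists: other glycosylases, end processing, long-patch synthesis and ligation, poly(ADP-ribose) signalling, mitochondrial DNA upkeep and the nucleotide pool. All 46 were tested in both lines. With olaparib 13 rose and 8 fell in SUM1315 (median log2 fold change 0.23), where 18.9% of all genes rose and 17.1% fell. In MDA-MB-468 17 rose and 4 fell (median 0.1), where 12.4% and 9.11% of all genes did. In both lines the mitochondrial helicase TWNK fell, from 320 ± 23.7 to 140 ± 8.73 in SUM1315 (log2 -1.19, adjusted p = 2.77e-08) and from 232 ± 18.6 to 105 ± 21.8 in MDA-MB-468 (log2 -1.16, adjusted p = 7.47e-09). NUDT1, which removes oxidised nucleotides from the pool, rose by 0.85 and 0.52, and RFC5, a subunit of the clamp loader, rose by 0.88 and 0.58 on the log2 scale. In SUM1315 the clamp PCNA went from 376 ± 65.8 to 751 ± 54.8 (log2 1.01, adjusted p = 3.66e-09), TDP2, which frees strand ends from trapped topoisomerase, rose by 1.15 and the dUTPase DUT by 0.49. In MDA-MB-468 the glycosylase MPG rose by 0.69, and POLE4 and POLE3, small subunits of polymerase epsilon, by 0.5 and 0.25.

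In OlaR against olaparib-treated cells 16 of the 46 genes were higher and 8 lower in SUM1315 (median 0.2), where 21.6% of all genes were higher and 25.7% lower. In MDA-MB-468 15 were higher and 12 lower (median -0.01), where 23.6% of all genes were higher and 27.9% lower. The long-patch list had 9 of 17 higher and 2 lower in SUM1315 and 7 higher and 2 lower in MDA-MB-468. RFC2 went from 81.3 ± 18.4 to 318 ± 36.1 in SUM1315 (log2 1.98, adjusted p = 1.51e-11) and from 160 ± 18.6 to 504 ± 35.3 in MDA-MB-468 (log2 1.65, adjusted p = 2.79e-18). SSBP1, which coats single-stranded mitochondrial DNA, rose by 1.24 and 0.82. RFC1 was lower by a log2 fold change of -0.92 in SUM1315 and higher by 0.78 in MDA-MB-468. PCNA (0.92), POLD1 (1.01) and POLE2 (1) were higher in SUM1315. In MDA-MB-468 APEX2, a relative of APEX1, went from 502 ± 31.1 to 188 ± 27 (log2 -1.42, adjusted p = 1.04e-17), the flap endonuclease FEN1 was at -0.57 and PARP1 at -0.65 on the log2 scale.

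PARP1 in SUM1315 OlaR cells went the other way, to 1763 from 1334 with olaparib (log2 0.4, adjusted p = 0.000304), while PARP2 was not called there (0.08) and was lower in MDA-MB-468 (-0.37, adjusted p = 2.62e-05). PARG, which removes poly(ADP-ribose), was lower in SUM1315 OlaR cells (-0.93, adjusted p = 0.000239) and at 0.02 in MDA-MB-468 (adjusted p = 0.935).

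With 4 µM CDDP alone in SUM1315, 27 of the 46 genes rose and 3 fell (median log2 fold change 0.63), where 22.2% of all genes rose and 21.7% fell. At 2.5 µM in MDA-MB-468, 21 rose and 5 fell (median 0.29), where 13.3% of all genes rose and 11.8% fell. In the long-patch list 13 of 17 rose in SUM1315 and 15 of 17 in MDA-MB-468, and in the nucleotide pool list both genes, NUDT1 and DUT, rose in both lines.

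The genes whose levels followed each member most closely were sought over the 18 condition means, each line centred on its own mean, among 9010 genes. The points share libraries and depth, and the values are descriptions. For UNG they were AP3M2 (r = 0.918) and CARD10 (0.901), for OGG1 POM121C (0.851) and GEMIN4 (0.846), and for MUTYH RFWD3 (0.848) and TRAIP (0.817). APEX1 was closest to RBMXL1 (0.943) and SLC35C1 (0.93), and POLB to USP39 and PALLD (both 0.937). XRCC1 was closest to TAP1 (0.908) and CEP85 (0.864), LIG3 to PPP4R1 (0.913) and URB2 (0.894), and APTX to MANBAL (0.941) and ZFAND2A (0.929). For POLG, the least covered member in MDA-MB-468, the highest values were lower, 0.788 with LOC643387 and 0.786 with ZNF160.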

How the data were processed

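RNA of 54 libraries was sequenced from transcript 3′ ends (QuantSeq). The authors demultiplexed with CASAVA 1.8.2 and used hg38. The submitters' processing notes also name FastQC, STAR, HTSeq and edgeR. The signal in the deposited table is edgeR's pseudo-count: reads per gene that the authors had scaled, condition by condition, to a common total of 5585170 (dispersion 0.01039), so low values carry part of their condition's mean. Inverting this scaling gave whole reads for 100% of 1483380 values (relative tolerance 1e-06). The authors' own tables of log2 fold changes, p-values and FDR against untreated parental cells were not used.

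Log2 of the adjusted value plus 1 was fitted per line (27 libraries, 9 conditions) or, for comparisons of lines, in all 54 libraries, with limma 3.58.1 and an intensity trend in R 4.3.3. Genes at 10 or more in at least 3 libraries entered: 13133 in SUM1315, 13012 in MDA-MB-468 and 11755 in both. The Benjamini-Hochberg adjustment ran over all of these genes, and called means an adjusted p of at most 0.05, with no fold limit. Alternatives were a pseudocount of 5, no filter, a 2-fold limit, only the groups compared, a replicate block, edgeR 4.0.16 (TMM or DESeq2 size factors) and DESeq2 1.42.0 on the whole reads, and leaving out each library. The limma fit was also run on simulated counts with a single dispersion and no outlying libraries. They were adjusted over all libraries of a line together and not condition by condition. That run therefore cannot show how the fit fares on these values. Members and lists were chosen with earlier results of these data known. Named are all 9 members, PARP1, PARP2, PARG, for each line up to 6 list genes of smallest adjusted p with olaparib and in OlaR, CCNE2, RRM2, MKI67, CCNB1 and the 2 genes most like each member. Lineage markers were named after their values were seen. Genes were placed with GENCODE on GRCh38, and promoters came from RefSeq (GRCh38.p14). Depth was 2070301 to 9268162 reads, and 3 libraries per condition limit the precision.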

Additional observations from a re-analysis of the deposited data

Results flagged for a closer look

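Differences between the effects of 2 groups that passed limma's test of the difference itself are listed here. The olaparib effect, SUM1315 minus MDA-MB-468 on the log2 scale, differed for UNG by -0.64 and for APTX by -0.52. The change from olaparib-treated to OlaR cells differed by -0.73 for APTX, which was lower in SUM1315 and higher in MDA-MB-468 OlaR cells, by 0.49 for LIG3 and by 0.38 for APEX1. For the higher CDDP dose the difference was -0.63 for UNG and -0.46 for APTX. Within MDA-MB-468 the effect of 2.5 µM CDDP in OlaR cells minus that in olaparib-treated parental cells was -0.44 for POLB and -0.46 for LIG3. The olaparib difference of APTX, the OlaR difference of APTX and the CDDP difference of UNG kept their call under every alternative but a 2-fold limit. UNG with olaparib lost it without replicate 3 of untreated SUM1315 (-0.44), APTX with CDDP without replicate 1 of 4 µM CDDP in SUM1315 (-0.36), and POLB without replicate 2 or 3 of olaparib + 2.5 µM CDDP (-0.4 and -0.39). The LIG3 and APEX1 results lost it in most fits without 1 library. Drug doses differ with the line, so line and dose cannot be told apart. The gap test for single outlying libraries was not run, since it needs more libraries in a group than the 3 of a condition.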

How the results depend on the processing

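Values are members called out of 9. No member called in the main setting changed its direction under any alternative, and a pseudocount of 5 moved no count by over 1.5 times. With a 2-fold limit each count fell to 0 except for olaparib + 2.5 µM CDDP against 2.5 µM CDDP in MDA-MB-468 (1) and the untreated lines (3). Without the filter the count was 3 for OlaR against olaparib in SUM1315, 0 for olaparib + 1 µM CDDP against olaparib and 1 for olaparib + 2.5 µM CDDP against CDDP in MDA-MB-468, and 1 for the OlaR difference between the lines. With only the groups compared it was 0 for 4 and 2 µM CDDP in SUM1315 and for olaparib + 1 µM CDDP in MDA-MB-468, and 1 for 2.5 µM CDDP in OlaR cells and for the interaction of MDA-MB-468. In these last comparisons edgeR, with either scaling, and DESeq2 also gave 1. edgeR gave 1 for olaparib in MDA-MB-468 with either scaling, and DESeq2 gave 1 for olaparib + 4 µM CDDP in SUM1315. The causes were not tested.

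Leaving out 1 library at a time gave, in SUM1315, 2 to 2 for olaparib, 3 to 6 for OlaR against olaparib, 2 to 5 for OlaR against untreated, 0 to 3 for 4 µM CDDP, 1 to 2 for 2 µM CDDP, 0 to 1 for olaparib + 4 µM CDDP against CDDP, and 0 in each fit for the other CDDP comparisons and the interaction. In MDA-MB-468 it gave 0 to 1 for olaparib, 3 to 4 for OlaR against olaparib, 4 to 5 for OlaR against untreated, 3 to 4 for 2.5 µM CDDP, 0 to 1 for 1 µM CDDP, 3 to 4 for olaparib + 2.5 µM CDDP, 0 to 2 for olaparib + 1 µM CDDP, 1 to 2 for olaparib + 2.5 µM CDDP against CDDP, 1 to 2 for 2.5 µM CDDP in OlaR cells, 0 for 1 µM CDDP in OlaR cells and 0 to 3 for the interaction. It gave 5 to 6 for the untreated lines and 1 to 2, 1 to 3 and 1 to 2 for the olaparib, OlaR and CDDP differences between them. Same-numbered libraries did not deviate together throughout (correlations -0.07 to 0.19 over 60 pairs), so the numbers were not taken to pair them. With the replicate number as a block, olaparib + 1 µM CDDP against olaparib gave 1 and no other count moved by over 1.5 times. Depth limits POLG in MDA-MB-468 (14 to 85 reads per library) and MUTYH in SUM1315 (16 to 63) most.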
